A study of Mus musculus with 425 samples.

Results

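Sox11, Dcx, Tubb3 and Nnat are 4 genes of the 15741 in the count table. They were chosen because earlier results of these same data showed their transcripts in embryonic ventral midbrain cells of a series on microglia and perivascular macrophages. Each was followed in all 25 embryonic ventral midbrain cells, in the 18 other embryonic cells and in 356 postnatal brain cells. Cells labelled sscortex were left out. Because the choice rested on the embryonic ventral midbrain levels, those levels are given here as a description without a test. Tests were made only between postnatal regions, a contrast on which the choice did not rest, although the genes and tests were picked with earlier results of the same cells known.

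The series holds 425 single cells of CD-1 mice, an outbred strain, on 197 microfluidic chips. No genotype or treatment separates the groups, and the labels give only a region and an age. The embryonic cells carry 1 label that spans days E11.5 to E18.5, so that no cell can be placed at a single day, and they come from ventral midbrain (25 cells on 16 chips), cortex S1 (11 cells on 2 chips) and dorsal horn (7 cells on 3 chips). The postnatal brain cells come from days 16 to 31: dorsal horn (1 cell), striatum (12), hippo CA1 (20), SN-VTA (28), ZonaIncerta (36), hypothalamus (37), Amygdala (47), DentGyr (57) and, with the most cells, cortex S1. Tissue was digested with papain and whole suspensions were loaded on chips that take medium-sized cells. The labels name no animals, so cells of 1 chip or 1 day may come from the same animal.

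SOX11 is a transcription factor of the SoxC family that is switched on as neural progenitors commit to becoming neurons. Doublecortin, the product of Dcx, binds and stabilises microtubules in migrating neurons, and Tubb3 encodes the beta-tubulin isotype that young neurons build into their axons. Nnat, which encodes neuronatin, is a small membrane protein gene expressed from the paternal copy only and is abundant in the developing brain and in the hypothalamus. Microglia, in contrast, are macrophages that reach the brain from the yolk sac. None of these genes belongs to their usual markers.

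On GRCm38, Sox11 is a single-exon gene at chr12:27334264-27342574 on the minus strand. Dcx lies at chrX:143855842-143933311 on the minus strand and Tubb3 at chr8:123411424-123422015 on the plus strand, where it overlaps the annotated gene Gm20388 on the same strand. Nnat lies at chr2:157560078-157562522 on the plus strand, inside Blcap, which runs the other way, and no exon of the host overlaps one of Nnat. Blcap had 23 UMIs (unique molecular identifiers, each counting 1 captured transcript) in the ventral midbrain cells against 265 for Nnat. Whether counting used strand is not given in the sources used here. Reads of Tubb3 may also be shared with closely related beta-tubulin genes.

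The bases just upstream of the outermost annotated start are shown because the libraries tag the 5′ end of transcripts, so that the counts start near these positions. The sequences are from RefSeq on GRCm38, 5′ to 3′ on the gene's own strand, with exon bases left out. Capitals mark an E-box, the letters CANNTG that basic helix-loop-helix factors bind.
Sox11, chr12:27342719-27342818, minus strand: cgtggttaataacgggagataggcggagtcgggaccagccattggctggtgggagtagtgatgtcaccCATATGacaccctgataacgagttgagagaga
Dcx, chrX:143933397-143933469, minus strand: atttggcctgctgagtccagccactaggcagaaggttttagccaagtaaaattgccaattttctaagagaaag
Tubb3, chr8:123411324-123411423, plus strand: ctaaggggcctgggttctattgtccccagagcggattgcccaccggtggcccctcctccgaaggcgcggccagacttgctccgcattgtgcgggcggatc
Nnat, chr2:157560008-157560077, plus strand: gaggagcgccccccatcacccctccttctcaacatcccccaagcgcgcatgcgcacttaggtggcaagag
The printed Sox11 stretch holds 1 E-box and the other three hold none. In the 300-base windows around the start (250 before, 50 after; both strands), Sox11 held 2 E-boxes and the other three genes 0, against 72.3% of 32851 mouse promoters with at least 1. The GC box GGGCGG occurred in the windows of Sox11 and Tubb3 and in 35.7% of all promoters. A TATA box, TATAAA, occurred in both windows listed for Dcx, in none of the other genes' windows and in 13.6% of all promoters. The REST half-site TTCAGCACC was in none of these windows and in 0.371% of all. A match is only a description of letters.

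Levels are given as CPM, a gene's UMIs per 1000000 UMIs of the same cell or group over the listed genes. Intervals are exact at 95% and cover counting error alone. Totals ran from 729 to 10260 UMIs over the 425 cells. The 25 ventral midbrain cells were deeper (median 4135) than the postnatal brain cells (median 1927). No cells of the table were duplicates of each other. The cells from embryonic cortex S1 and dorsal horn go against their age label in 1 respect. Both groups held much myelin RNA, which is made by oligodendrocytes after birth: 12 oligodendrocyte genes summed to 30912 CPM and 135442 CPM there, against 1124 CPM in ventral midbrain and 40044 CPM in postnatal brain. Their values are therefore given apart from those of the ventral midbrain.

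The ventral midbrain cells carried macrophage RNA throughout. A panel of 12 microglia genes, such as P2ry12, Gpr34 and Sall1, summed to between 4139 and 50301 CPM per cell (median 16437), and none of its genes was at 0. The 18 genes of a macrophage lineage list, such as Tyrobp, Cx3cr1 and C1qa, summed to between 22762 and 79047 CPM per cell. A panel of 12 perivascular macrophage genes summed to a median of 512 CPM, with 4 of its genes at 0, and 24 of the 25 cells had more microglia panel than perivascular panel RNA.

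Nnat was the most abundant of the 4 genes in these cells and was found in 25 of 25. It had 265 UMIs, or 2190.2 CPM (interval 1934 to 2470.5), and its level per cell ran from 211 over a median of 2161 to 11898 CPM. The highest value came from a shallow cell with 1765 UMIs in all, of which 21 were Nnat. Nnat had UMIs on all 16 chips, between 267 and 11898 CPM per chip.

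Tubb3 followed with 209 UMIs and 1727 CPM (1501 to 1978). It ranged from 0 over a median of 1206 to 5101 CPM per cell and had a UMI in 20 of 25 cells. In the richest cell it had 38 UMIs, while 5 cells had none.

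Sox11 had 187 UMIs, 1546 CPM (1332 to 1784), and a UMI in 23 of 25 cells. Its level per cell ran from 0 over 1476 to 3782 CPM. Dcx was the least abundant, with 77 UMIs, 636 CPM (502 to 795) and a UMI in 18 of 25 cells, and ran from 0 over 582 to 2569 CPM per cell. Of the UMIs of these 4 genes in the ventral midbrain, Nnat made up 35.9% (32.4% to 39.5%), Tubb3 28.3% (25.1% to 31.7%), Sox11 25.3% (22.2% to 28.6%) and Dcx 10.4% (8.32% to 12.9%).

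Detection of the 4 genes was also counted within each cell. Summed, they took between 0.126% and 1.36% of a cell's UMIs, with a median of 0.585%. All 4 were detected in 14 of the 25 cells, 3 of them in 8 cells, 2 in 3 cells and fewer in none. Each gene alone was found in 72% to 100% of these cells, so that nothing is read from these counts about a link between the genes. Of the 356 postnatal brain cells, 2 had all 4 genes, 11 had 3, 30 had 2, 209 had none and the remainder had 1. Every ventral midbrain cell therefore held at least 2 of these transcripts, including the cell with the least RNA, which had 1338 UMIs in all, 3 of Sox11 and 2 of Nnat.

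**Figure D1:**
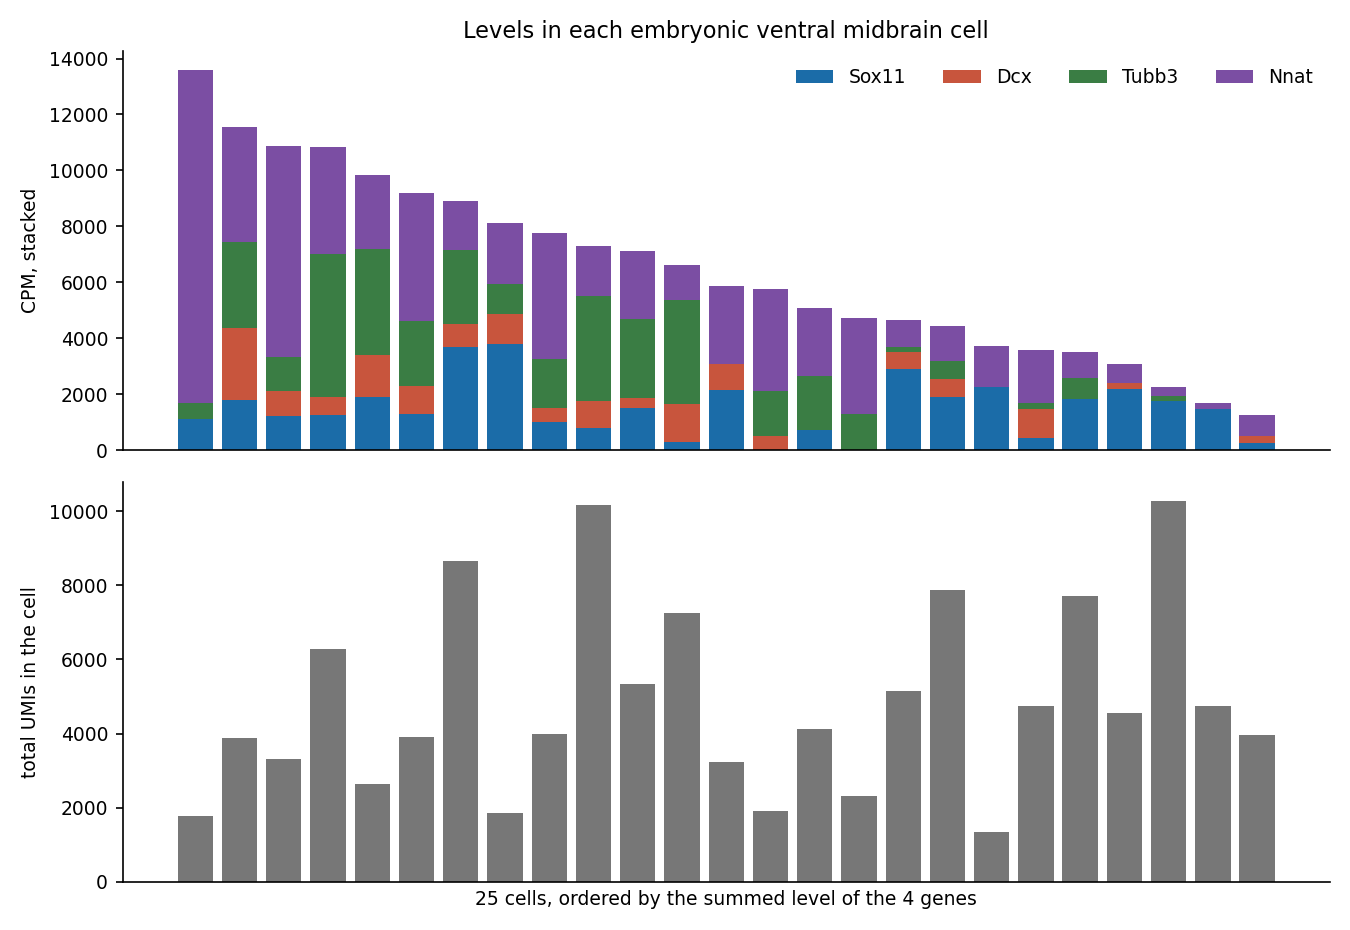
Levels of Sox11, Dcx, Tubb3 and Nnat stacked for each of the 25 embryonic ventral midbrain cells (top, CPM) and the total UMIs of the same cells (bottom). Cells are ordered by the summed level, which runs from 13598 CPM on the left to 1264 CPM on the right. The cells with the most UMIs are not those with the highest summed level.

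Because the ventral midbrain cells were the deeper ones, the shares were also set at 1 depth. When each cell was thinned to 1000 UMIs, leaving out 38 of the 356 postnatal cells that were shallower, the expected share of ventral midbrain cells with a UMI was 82.2% for Nnat, 70.1% for Sox11, 59.9% for Tubb3 and 42.2% for Dcx. In the postnatal cells it was 14.4% for Nnat, 4.51% for Sox11, 11.6% for Tubb3 and 3.30% for Dcx. Unthinned, the postnatal shares were 22.2%, 7.87%, 20.8% and 6.74% in the same order.

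In postnatal brain cells as a whole, Nnat stood at 220 CPM (189.8 to 255), Tubb3 at 169 (142 to 199), Sox11 at 57.5 (42.4 to 76.3) and Dcx at 53.9 (39.3 to 72.2). Ventral midbrain levels were 9.93 times as high for Nnat, 10.2 times for Tubb3, 26.9 times for Sox11 and 11.8 times for Dcx. Of all 8587 genes with at least 20 UMIs in these cells, 2.71% were at least 4-fold higher in the ventral midbrain, and all 4 genes were among them. Since they were chosen from this contrast, nothing is read from that. By cell class, the 141 postnatal cells with more microglia panel RNA had 226 CPM of Nnat, 206 of Tubb3 and 58.3 of Dcx, and the 214 cells with more perivascular panel RNA had 218, 149 and 51.7. Sox11 was 106.2 CPM (72.2 to 151) in the first class and 31.4 (18.3 to 50.2) in the second. These classes differ in region too. Microglia against perivascular panel RNA was 21161 against 8046 CPM in DentGyr and 6523 against 22262 CPM in cortex S1. DentGyr held 26 of the 48 postnatal Sox11 UMIs, 8 of them in 1 cell, and cortex S1 held 3. The part of region in the Sox11 values was not tested. In 11 of the postnatal cells the split was near even, with 25% to 75% of the panel UMIs from each side, and 1 cell was tied.

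The other embryonic cells had few of these transcripts. In cortex S1 (11 cells, median 2242 UMIs), Sox11 had 6 UMIs in 1 cell or 181 CPM (66.6 to 395), Tubb3 had 5 UMIs in 3 cells or 151 CPM (49.1 to 353), and Dcx and Nnat had 0, which allows up to 90.7 CPM. In dorsal horn (7 cells, median 2161 UMIs), Tubb3 had 6 UMIs in 3 cells, Sox11 3 UMIs in 1 cell, and Dcx and Nnat 1 UMI each. The share of genes at least 4-fold higher in ventral midbrain was 13.7% of 2037 against cortex S1 and 8.34% of 1714 against dorsal horn. These counts, 280 and 143 genes, depended on the threshold: at 2-fold they were 763 and 511, at 8-fold 62 and 20, and with a minimum of 50 UMIs 57 and 56. The 4 cells from bone marrow and epidermis had no UMI of any of the 4 genes.

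**Figure D2:**
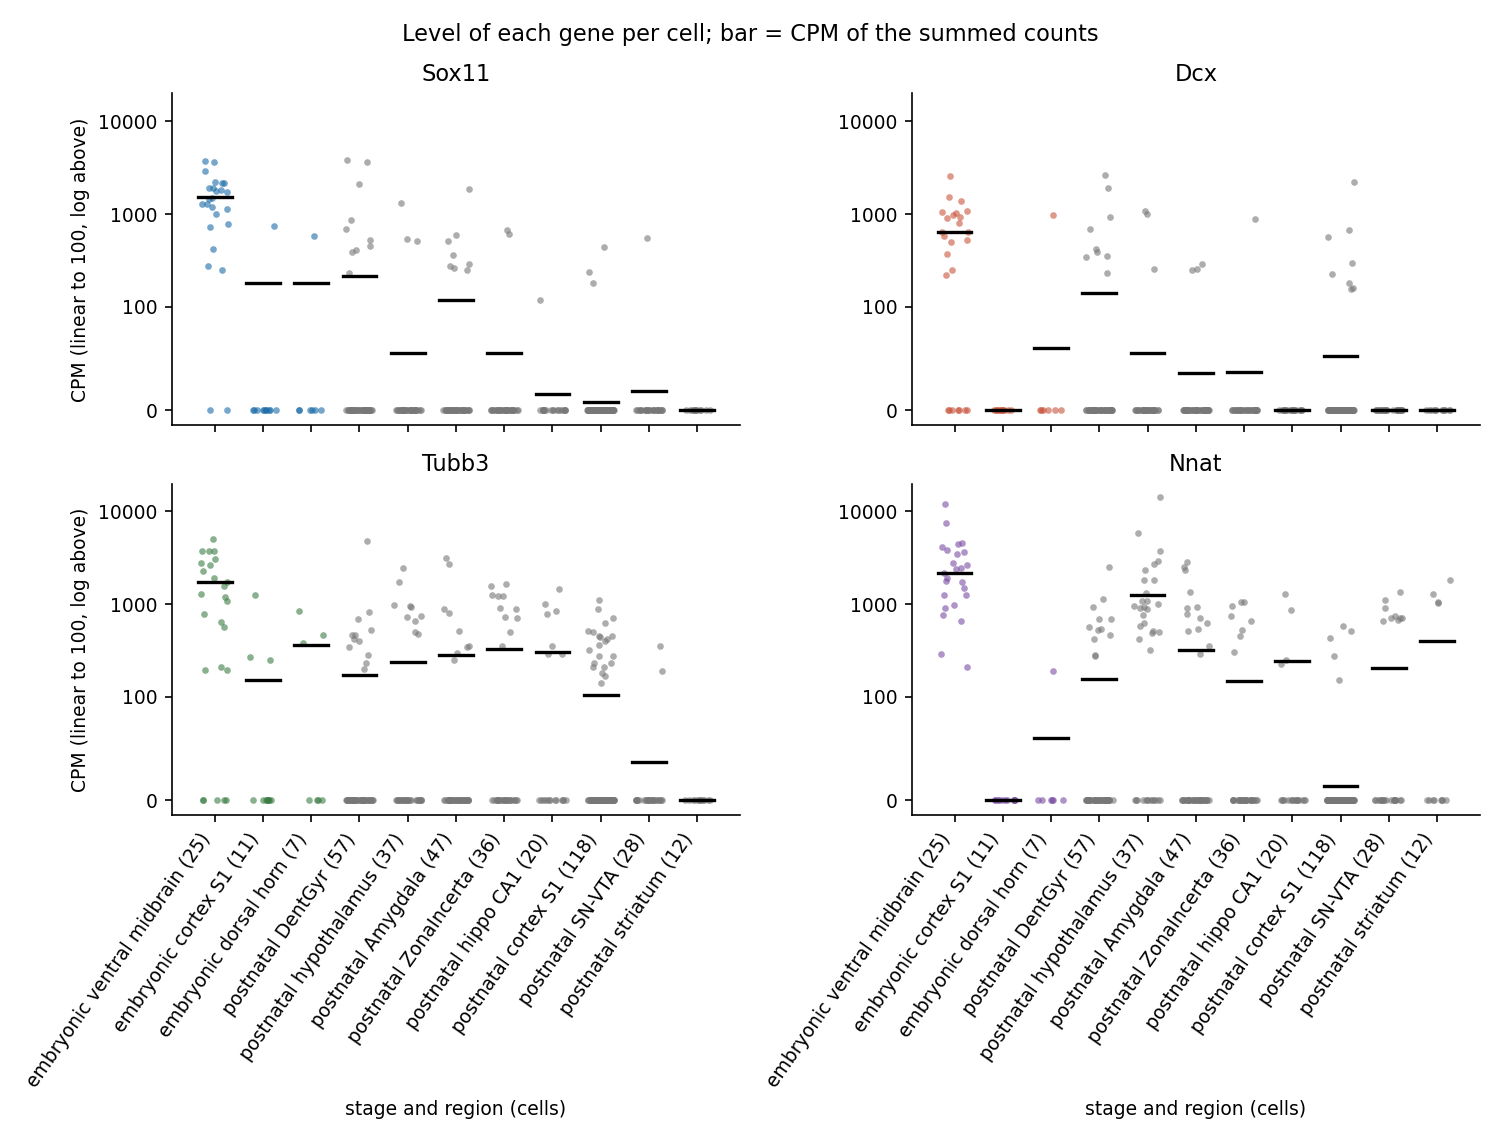
Level of each gene in the embryonic and postnatal brain cells by stage and region, with the number of cells in brackets (CPM, linear to 100 and logarithmic above). The 1 postnatal dorsal horn cell is not shown. Coloured points are embryonic cells, grey points postnatal cells, and bars are the CPM of a group's summed counts. Ventral midbrain bars stand at 1546 (Sox11), 636 (Dcx), 1727 (Tubb3) and 2190.2 CPM (Nnat), and the only other bar above 1000 CPM is that of Nnat in hypothalamus.

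Other genes of young neurons were present in the same cells. From a list of 36 such genes besides the 4, 19 are in the table, and 17 of them had a UMI in ventral midbrain. Together they had 835 UMIs, or 6901 CPM, against 1938 CPM in postnatal brain, 1391 in embryonic cortex S1 and 1207 in embryonic dorsal horn. The most abundant was Gap43, a growth cone protein gene, at 934 CPM (770 to 1123) in 14 cells. Sox4, the SoxC relative of Sox11, stood at 884 CPM in 22 cells, and Dpysl3, a growth cone cytoskeleton gene, at 793 CPM in 17. The beta-tubulin gene Tubb2b had 777 CPM in 16 cells, Nrep 628 CPM in 21, and Cd24a, a surface protein gene of neuroblasts, 570.3 CPM in 17. Of the 18 with at least 20 UMIs in both groups together, 9 were at least 4-fold higher than in postnatal brain and 2 at least 4-fold lower, with a median log2 ratio of 2.07 against -0.02 over all 8587 genes. Cd24a was 39.7 times, Dpysl3 18.4 times and Tubb2b 13.8 times as high. The 2 lower genes, Neurod6 and Neurod2, belong to excitatory forebrain neurons and had 2 and 0 UMIs. Both reach 20 UMIs only through postnatal brain, and the share of all genes this much lower was not counted.

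Genes of mature neurons were lower in the ventral midbrain cells than in postnatal brain as a whole, but not than in every group. Their list summed to 1347 CPM, against 4343 CPM in postnatal brain. Among postnatal regions it stood at 833 CPM in SN-VTA, 1780 in hypothalamus and 9101 in DentGyr. Embryonic cortex S1 had 2117 CPM and embryonic dorsal horn 302 CPM. Of 17 such genes with at least 20 UMIs, 0 were at least 4-fold higher in ventral midbrain cells than in postnatal brain and 7 were at least 4-fold lower, with a median log2 ratio of -1.93. The share of all genes this much lower was not counted, and genes such as Thy1 reach 20 UMIs only through postnatal brain. Nothing is therefore read from the 7. Nrgn, a postsynaptic protein gene, and Thy1 had 0 UMIs in the ventral midbrain cells and 577 and 234 in postnatal brain. The most abundant were Slc17a6, the vesicular glutamate transporter of brainstem and diencephalon (24 UMIs, of which 16 were in 1 cell), and the neurofilament gene Nefm (24 in 12 cells).

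Neural progenitor genes were concentrated in 1 cell. Of 362 UMIs over 19 such genes, 254 were in the cell with the most RNA (10260 UMIs), which held 185 of the 197 UMIs of Fabp7, a gene of radial glia. That cell had 23 UMIs of the 4 genes, 18 of them Sox11, and no Dcx. The median ventral midbrain cell had 3 UMIs of the progenitor list. Mitosis and DNA replication genes were higher as a group than in postnatal brain, with 15 of 18 at least 4-fold higher. These included Top2a (1215 CPM, in 11 cells) and Cdk1 (851 CPM, in 11 cells). The whole list of 23 ran from 0 over a median of 5 to 155 UMIs per cell. It summed to 7331 CPM, against 4930 in embryonic cortex S1 and 483 in embryonic dorsal horn. Against cortex S1, 3 of 15 genes were at least 4-fold higher (13.7% of all genes). Against dorsal horn, 5 of 15 were (8.34% of all genes).

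Genes that mark a brain region were at low levels. Of 18 ventral midbrain identity genes in the table, 17 had a UMI and the list had 89 in all. These included Pou4f1, a factor of red nucleus neurons (20 UMIs), Shh (10), Nr4a2 (8), Gata3 (8) and Lmx1a (7). Of 12 forebrain identity genes, only Bcl11b (9 UMIs) and Emx2 (3) had any, and Emx1, Tbr1 and Dlx1 were among those at 0. Spinal cord identity genes had 2 UMIs over 7 genes. The same spinal cord list had 0 UMIs in embryonic dorsal horn, and the forebrain list had 5 in embryonic cortex S1. Both lists were thus near the floor in embryonic cells of their own regions, so nothing is read from their low values. In postnatal SN-VTA, by its name a ventral midbrain region, Nnat had 11 UMIs in 9 of 28 cells, Tubb3 2, Sox11 1 and Dcx 0.

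**Figure D3:**
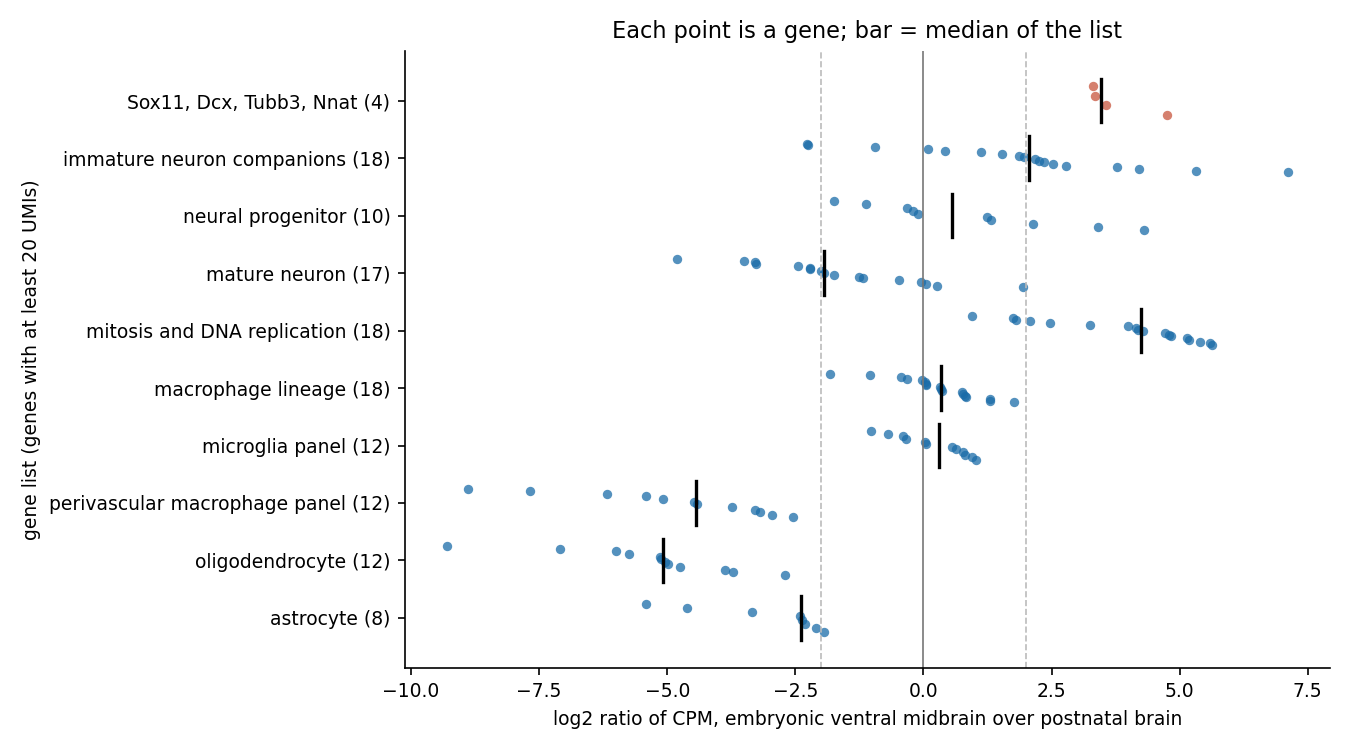
Log2 ratio of the CPM in embryonic ventral midbrain over postnatal brain for each gene with at least 20 UMIs, by gene list, with the number of genes in brackets; bars are medians and dashed lines mark a 4-fold difference. Immature neuron companions centre on 2.07 and mature neuron genes on -1.93. The microglia panel has 0 genes beyond 4-fold in either direction.

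Across the 25 cells, some of which share a chip and which differ in depth, the 4 genes were compared in pairs. On a log2 scale of UMIs per 2000, Pearson's r was 0.50 between Dcx and Tubb3 and 0.46 between Tubb3 and Nnat. For Sox11 it was 0.13 with Dcx, -0.14 with Tubb3 and -0.18 with Nnat, values too weak to read in counts this sparse. The summed level of the 4 followed the summed level of the 19 companions (r = 0.70), which ran from 1476 to 16260 CPM per cell. It stood at -0.38 with the macrophage lineage list, at -0.19 with total UMIs and at -0.17 with the mitosis list. The single genes were uneven. With the companions, r was 0.74 for Tubb3, 0.51 for Nnat, 0.38 for Dcx and 0.06 for Sox11. With the macrophage lineage list it was -0.58 for Tubb3, -0.30 for Dcx, -0.20 for Sox11 and -0.04 for Nnat. With total UMIs it was -0.48 for Nnat and between 0.10 and 0.20 for the others. Values are shares of 1 cell's total, so that a rise in one class of RNA lowers the rest. How much of these levels is RNA from other cells was not tested.

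**Figure D4:**
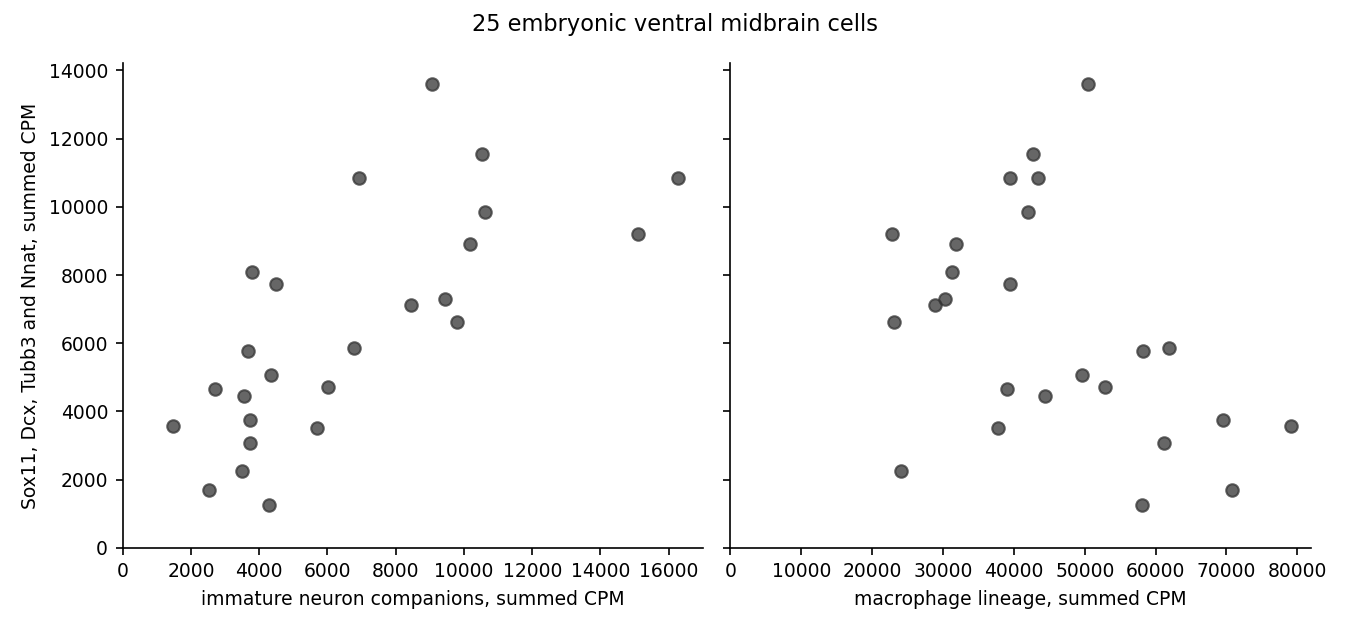
Summed level of Sox11, Dcx, Tubb3 and Nnat (vertical axis, CPM) against the summed level of the immature neuron companions (left) and of the macrophage lineage genes (right, both in CPM) for each of the 25 embryonic ventral midbrain cells. The cell with the most companion RNA (16260 CPM) has 10840 CPM of the 4 genes. Macrophage lineage RNA is present in all cells, from 22762 to 79047 CPM.

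Over the same cells, the gene most like Tubb3 among 1441 with at least 20 UMIs was Gap43 (r = 0.75), followed by Zcchc12 (0.71) and Dynlt1a (0.67). Slc12a2 (0.73), Strbp (0.59) and Nsg2 (0.59) were most like Nnat. Maged2 (0.62), Myt1l (0.59) and Cxadr (0.59) were most like Dcx. Those most like Sox11 were Ptplad2 (0.64), Supt16 (0.59) and Tnks2 (0.55). For the sum of the 4, the leading genes were Gdpd1 (0.60), Mex3a (0.60), Fbxo11 (0.58), Cxadr (0.57), Tenm2 (0.54), Slc12a2 (0.54), Zfp512 (0.53) and Strbp (0.52). The median r over all genes was between -0.10 and 0.04 for each of the 5 measures. Over 11 region and stage groups, which differ in depth and of which 1 is much higher than the rest, Tubb2b (0.92), Sox4 (0.90) and Lyn (0.89) were most like Sox11, and Ctsz (0.94), Lyn (0.91) and Rbmxl1 (0.90) most like Dcx. For Tubb3 they were Tmed1 (0.91), Tmpo (0.87) and Rbbp7 (0.86), and for Nnat Vezf1 (0.89), Fbl (0.88) and Nova1 (0.84).

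Postnatal regions were compared over pools of 1 region and 1 day, each with at least 3 cells: 36 pools of 7 regions with 322 cells and 4597 to 119112 UMIs. Different days are different animals, but pools of 1 day may share animals, and p-values measure only the spread between these pools. Over regions, edgeR's quasi-likelihood test called 11.6% of 8729 genes (Benjamini-Hochberg adjustment, threshold 0.05). All 4 genes passed the filter on low counts. Nnat (adjusted p = 1.46e-09) and Sox11 (0.0036) were among them, and Dcx (0.0912) and Tubb3 (0.457) were not. With day as a block in the same fit, since pools of 1 day may share animals, Nnat kept its call (edgeR, adjusted p = 0.000218) and Sox11 did not (0.0946).

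Nnat was highest in hypothalamus. The 6 hypothalamus pools ran from 420.0 over a median of 986 to 2556 CPM (mean 1274 ± 894, SD). The 30 other pools ran from 0 to 834 CPM with a mean of 178 ± 230.2. All 6 hypothalamus pools lay above the median of the others (100.9), and the 2 lowest, at 420.0 and 506 CPM, lay below the highest of them. Nnat was higher in hypothalamus by a log2 change of 2.82 ± 0.44 (SE; edgeR, adjusted p = 3.22e-07), in a test that called 0.584% of genes higher there. It had a UMI in 24 of 37 hypothalamus cells and 91 UMIs, of which 28 were in 1 cell of day 27. Without the pool of that day the log2 change was 2.21 (edgeR, adjusted p = 0.00768), and with day as a block it was 2.84 (0.0100). Among cells richer in microglia panel RNA, hypothalamus had too few pools to be tested, and Nnat did not differ over the regions left (edgeR, adjusted p = 0.470).

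In hypothalamus edgeR called few genes, 0.584% of all genes higher and 0.0916% lower. Counts of 0 in short lists are near these shares, so nothing is read from them. Of 15 companions tested, edgeR called 0 there (3 at an unadjusted p under 0.05, and 0 by DESeq2), and of 17 mature neuron genes 0 (6 unadjusted, and 1 by DESeq2). Neither the 12 microglia panel genes (0 called, 2 unadjusted, 0 by DESeq2) nor the 12 perivascular panel genes (0 called, 1 unadjusted, 0 by DESeq2) passed. Of 18 macrophage lineage genes, 1 was higher (2 by DESeq2). It was Fcer1g, an Fc receptor subunit gene, at 3530.0 ± 1894 CPM over the hypothalamus pools against 944 ± 509 in the others (edgeR, adjusted p = 0.00912). The whole macrophage lineage list summed to 50911 ± 16401 CPM there and to 31706 ± 9136 CPM elsewhere. Of 8 astrocyte genes edgeR called 0, although 6 had an unadjusted p under 0.05 (0 called by DESeq2), and their sum was 5019 ± 3558 against 3215 ± 3325 CPM. Their part in the Nnat value was not tested. The adjusted p was 0.976 for Dcx and 1.00 for Sox11 and Tubb3 (edgeR). Of 8 other imprinted genes or Nnat neighbours tested, 1 was higher, Dlk1, a Notch ligand relative (edgeR, adjusted p = 0.0295), which had 7 UMIs (97.4 CPM) in hypothalamus and 7 (129.6 CPM) in SN-VTA. Tubb4a, a tubulin of myelinating cells, had 0 UMIs in the hypothalamus pools and 182 in the others and was called lower (edgeR, adjusted p = 0.0295), in a test that called 0.0916% of genes lower there. DESeq2 called neither, with no adjusted p for Dlk1 and 0.0739 for Tubb4a.

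At the other end, Nnat was nearly absent from cortex S1, with 5 UMIs in all, in 4.24% of cells. Its 8 pools there lay between 0 and 60.04 CPM, below all 4 ZonaIncerta pools (89.7 to 289 CPM) that were next in order. How many of all genes part this pair of regions was not counted, so nothing is read from it. Cortex S1 was not tested against the other regions. The means were 342 ± 358 in Amygdala, 234 ± 214 in SN-VTA, 226 ± 391 in hippo CA1, 182 ± 122 in DentGyr, 175 ± 94.5 in ZonaIncerta and 13.4 ± 21.2 CPM in cortex S1. Neighbours in this order from Amygdala to ZonaIncerta differed by less than their SD. In striatum, which had too few cells per day for a pool, Nnat had 7 UMIs in 4 of 12 cells and the other three genes had none.

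Sox11 and Dcx were highest in DentGyr. The dentate gyrus is a place where new neurons are born after birth. The 6 DentGyr pools ran from 0 over a median of 177 to 337 CPM for Sox11 (mean 168 ± 118.5) against 46.2 ± 87.4 in the other 30 pools, a ratio of means of 3.64. Of the 6 pools, 5 had Sox11, and 19 of the 30 others had none. Amygdala came close, at 137 ± 143, and held the highest single pool, 385 CPM from 2 UMIs, so that these 2 regions differed by less than their spread. Sox11 was called higher in DentGyr (edgeR, adjusted p = 0.000627), where 5.92% of genes were called higher. With 0 UMIs of Sox11 in all SN-VTA pools the fitted fold depends on the fit's prior count, so the ratio of means stands in its place.

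Dcx followed with 0 over 93.6 to 239.8 CPM per DentGyr pool (mean 110.02 ± 106.9) against 24.9 ± 43.7 in the others, a ratio of means of 4.43. It was found in 4 of 6 DentGyr pools and in 9 of 30 others, and cortex S1 was next at 46.6 ± 49.6. Dcx was called higher in DentGyr (edgeR, adjusted p = 0.00608), but the call was lost without the day 21 pool (adjusted p = 0.0909) with at least 5 cells per pool (0.208) and with day as a block (0.135). Sox11 kept its call in these (0.0273, 0.0139 and 0.0227). That day 21 pool held 13 of the 26 Sox11 UMIs of DentGyr, 8 of them in 1 cell that also had 10 UMIs of Tubb3. Neither Tubb3 (117.3 ± 139.8 CPM in DentGyr, 185 ± 197 elsewhere; edgeR, adjusted p = 1.00) nor Nnat (182 ± 122 against 396 ± 622; adjusted p = 0.95) was called there. Tubb3 means ran from 23.4 ± 40.6 in SN-VTA to 347 ± 287 CPM in hippo CA1. The Tubb3 pools of these 2 regions, 3 in each, ran from 0 to 70.3 and from 162 to 678 CPM. No other pair of regions had Tubb3 pools without overlap. How many of all genes part this pair was not counted, so nothing is read from it, and over regions Tubb3 was not called.

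Some companion genes passed beside Sox11 and Dcx in DentGyr, in both directions. Of 15 tested, edgeR called 7 higher and 2 lower and left 6 without a call, where 5.92% and 0.642% of all genes were called higher and lower. DESeq2 called 4 of these 9, Neurod2 and Nrep higher and Gap43 and Elavl4 lower. Levels below are means over the 6 DentGyr pools against the 30 others. Neurod2, a factor of excitatory neurons, stood at 418 ± 201 against 56.8 ± 103.6 CPM (edgeR, adjusted p = 2.46e-09), and Nrep at 345 ± 154 against 100.1 ± 115.3 CPM (0.000203). Gap43 was lower, at 13.4 ± 22.6 against 396 ± 408 CPM, a fall by 3.62 on the log2 scale (edgeR, adjusted p = 0.000591). Elavl4, a neuronal RNA-binding protein gene, was lower at 8.63 ± 21.1 against 185 ± 188 CPM (0.00572).

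The other 5 companions called higher rest on edgeR alone. Tubb2b stood at 174 ± 156 against 27.1 ± 48.7 CPM (edgeR, adjusted p = 0.000102, but 0.0920 by DESeq2). Neurod1, a factor of granule neuron birth, stood at 146 ± 186 against 19.6 ± 45.3 CPM (edgeR, adjusted p = 2.56e-05), and Dpysl3 at 85.2 ± 130.5 against 30.1 ± 52.3 CPM (0.0432), both with no adjusted p from DESeq2. Crmp1 (edgeR, adjusted p = 0.0471) had a UMI in 5 of 6 DentGyr pools. Neurod6 (0.0247) had all its 14 UMIs in 1 of them, and its mean there, 60.4 ± 148 CPM, lay below the 76.4 ± 204 CPM of the other pools. It had 0 UMIs in 3 of the regions. Of 4 forebrain identity genes tested, edgeR called 3 higher and DESeq2 1. Prox1, the identity factor of dentate granule neurons, stood at 172 ± 148 against 11.7 ± 24.6 CPM (edgeR, adjusted p = 2.83e-05, with no adjusted p from DESeq2).

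Of 17 mature neuron genes tested in DentGyr, edgeR called 8 higher, among them Nrgn, Adcy1 and Camk2a, and 0 lower, and 9 did not pass. DESeq2 called 7 of the 8. The summed level of the list was 9648 ± 2133 CPM in the DentGyr pools (6666 to 12657), against 6916 ± 2835 in Amygdala and 1550.4 ± 1134 in hypothalamus. Other cell classes differed too. Of 12 oligodendrocyte genes, 6 were called lower in DentGyr by edgeR and 6 by DESeq2, 4 of them by both, and the list summed to 2329 ± 1056 CPM there against 29314 ± 39073 CPM in the other pools. Of the panel genes, 3 of 12 for microglia were called higher (2 by DESeq2) and 2 of 12 for perivascular macrophages lower (2 by DESeq2). The panels summed to 22170 ± 7654 and 7749 ± 5197 CPM in DentGyr, with no panel gene at 0 in postnatal brain. The part of these classes in the Sox11 and Dcx values was not tested. Among cells richer in microglia panel RNA, only 3 regions with 14 pools could be fitted, so DentGyr was set against fewer regions. There Sox11 was called higher in DentGyr (edgeR, adjusted p = 0.0373) and Dcx was not (0.470), where 205 of 2983 genes were called higher.

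**Figure D5:**
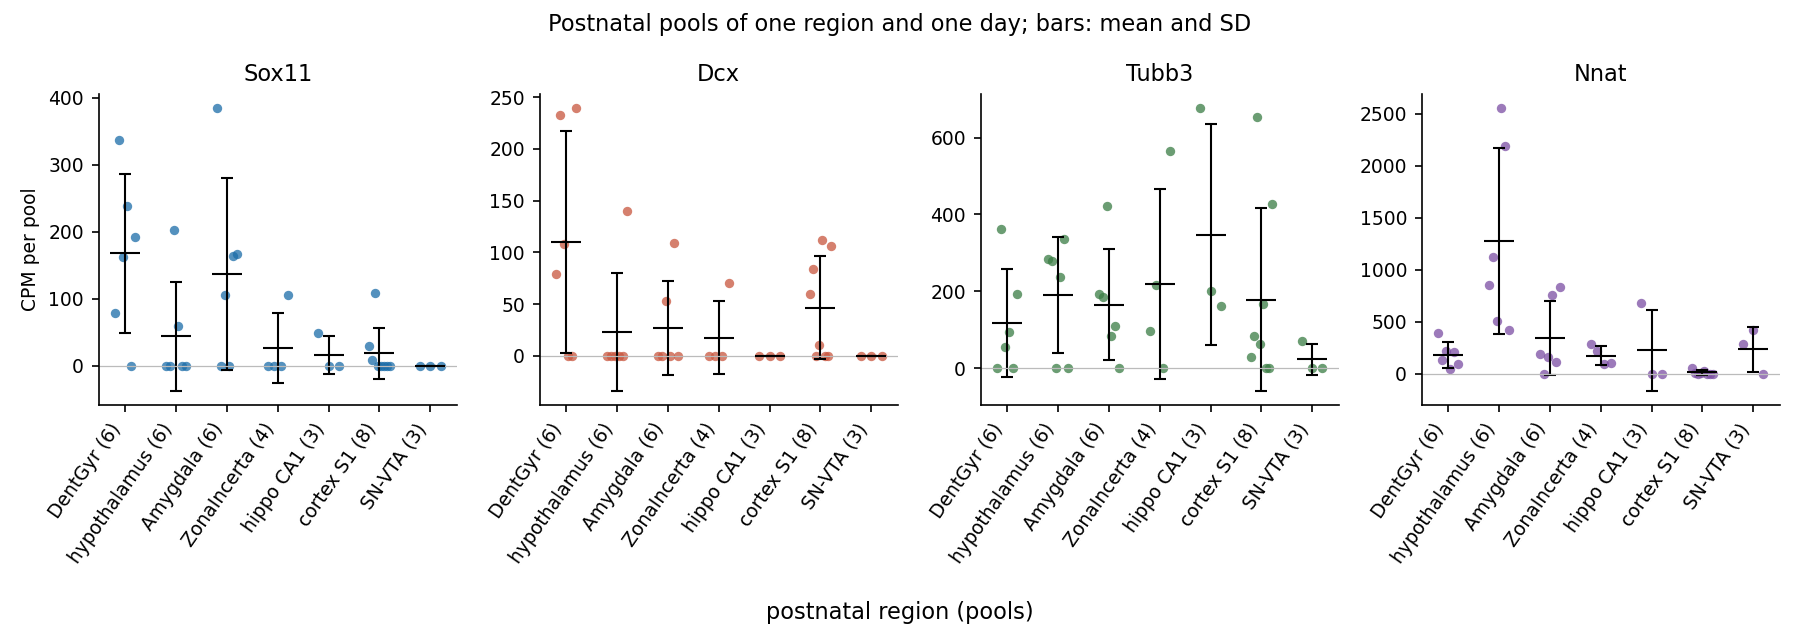
Level of each gene in the 36 postnatal pools of 1 region and 1 day (points, CPM), by region with the number of pools in brackets; horizontal bars are means and vertical bars 1 SD, which reach below 0 where many pools are at 0. Nnat reaches 2556 CPM in hypothalamus and stays at or below 60.04 CPM in cortex S1. Sox11 averages 168 CPM and Dcx 110.02 CPM in DentGyr, and Tubb3 pools overlap between all regions but SN-VTA and hippo CA1.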

How the data were processed

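The authors deposited raw counts, whole numbers of UMIs per gene and cell from libraries that tag the 5′ end of transcripts. The submitters' processing notes give the build mm10; aligner and counter: not given in the sources used here. The table does not list every gene, so totals are sums over listed genes. The 4 genes, the gene lists and the tests were chosen with earlier results of these data known. Groups are the labels' region and stage; 6 older brain cells were not compared. From the counts, CPM with exact Poisson intervals and shares of cells with exact Clopper-Pearson intervals were computed (95%, counting error only; a count of 0 is bounded by 3 counts). A 4-fold difference was read for genes with at least 20 UMIs in both groups together.

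Postnatal pools (at least 3 cells, regions with at least 3 pools) were tested with the robust quasi-likelihood F-test of edgeR 4.0.16 with TMM scaling in R 4.3.3. Genes with at least 15 UMIs and a UMI in 3 pools were tested over all regions. DentGyr and hypothalamus were each also set against the mean of the other regions, and no other region was. Cells with the larger share of panel UMIs from microglia genes counted as richer in them. On simulated data for DentGyr (8346 genes), 94% of 50 genes with a log2 change of 3, 60% with 2, 20% with 1 and 8% with -2 were recovered, with 20 false calls, and 0 with no change. Alternatives were DESeq2 1.42.0 and its size factors, other filters, other pool sizes, age as a covariate, day as a block (added after seeing the data), thinning to 1000 UMIs, microglia-panel cells and leaving out each pool or chip. Genes named are, from each list, up to 6 with most UMIs in ventral midbrain and those called between regions; Thy1 and some identity genes at 0 were named after their values were seen. A few genes of the lists are not reported here. For likeness, genes were ranked by Pearson's r of log2 values. No doublet caller was run. Plots used matplotlib 3.10.9, and tables used pandas 2.3.3, scipy 1.17.1 and numpy 2.4.6 under Python 3.11.15.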

Additional observations from a re-analysis of the deposited data

Results flagged for a closer look

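In regions with 4 to 10 pools, 6 of 20 combinations of a gene and a region had 1 pool far above the rest. Chance marks about 1 in 20 groups of normally spread values this way, but each of these rests on 1 to 3 UMIs, and where the other pools are at 0 a single UMI is enough, so that rate does not apply to them. Sox11 stood at 105.8 CPM (3 UMIs) in the ZonaIncerta pool of day 22, at 108.8 CPM (1 UMI) in cortex S1 of day 23 and at 203 CPM (2 UMIs) in hypothalamus of day 25. Dcx stood at 70.5 CPM (2 UMIs) in ZonaIncerta of day 22 and at 140.0 CPM (2 UMIs) in hypothalamus of day 29, with the other pools of those regions at 0. Nnat stood at 60.04 CPM (2 UMIs) in cortex S1 of day 21. The cause was not tested.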

How the results depend on the processing

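Sox11 in DentGyr and Nnat in hypothalamus kept their direction and call under every alternative that could test them. Over left-out pools, the adjusted p of Sox11 ran from 0.000153 to 0.0273 and the log2 change of Nnat from 2.21 to 3.72. Dcx in DentGyr lost its call with at least 5 cells per pool (adjusted p = 0.208), in microglia-panel cells (0.470) and with day as a block (0.135), and ran from 0.00138 to 0.0909 over left-out pools. It could not be tested after thinning or with filterByExpr, and DESeq2 gave it no adjusted p. Over regions, Sox11 lost its call after thinning (adjusted p = 0.0566) and in microglia-panel cells (0.103), and Dcx gained one with at least 2 cells per pool (0.0355), without ZonaIncerta day 22 (0.0474) and without hypothalamus day 29 (0.0274).

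The labels give no replicate numbers, but pools share days. A fit with day as a replicate block, added after seeing the data, called 405 genes over regions, 335 for DentGyr and 11 for hypothalamus. In it Nnat in hypothalamus stood at a log2 change of 2.84 (adjusted p = 0.0100), Sox11 in DentGyr kept its call (0.0227), and Sox11 over regions lost it (0.0946).

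Counts of called genes also moved. Over regions, 1009 became 570 (DESeq2), 174 (filterByExpr), 304 (thinned) and 149 (microglia-panel cells). For DentGyr, 573 became 258, 124, 307 and 215 in the same order, and 929 with at least 2 cells per pool. For hypothalamus, 59 became 14 (DESeq2), 11 (filterByExpr), 4 (thinned), 32 (age as a covariate) and 38 (at least 5 cells), and ran from 31 to 78 over left-out pools, with fewer than 40 without SN-VTA day 25, cortex S1 day 22 or hypothalamus days 21, 27 or 29. The cause was not tested.

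In ventral midbrain, Nnat moved to 2769 CPM as a mean of cells, 2640 after thinning and 2491 without the tenth of cells with most UMIs, and Tubb3 to 1480 after thinning. Without any 1 chip all 4 levels stayed within their intervals. Genes at least 4-fold higher than in postnatal brain numbered 233, or 406 and 83 at minimums of 10 and 50 UMIs, and 1296 and 78 at 2-fold and 8-fold. Depth limits the postnatal values: many pools hold 0 to 3 UMIs of a gene.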
